A study of Rattus norvegicus with 12 samples.

Results

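Reactive glia and acute phase transcripts were followed in the rat retina through 6 genes: Gfap, Vim, Timp1, Serping1, Lcn2 and Cp. They were chosen by Ensembl identifier, and all 6 identifiers were present among the 32883 rows of the deposited table (Gfap ENSRNOG00000002919, Vim ENSRNOG00000018087, Timp1 ENSRNOG00000010208, Serping1 ENSRNOG00000007457, Lcn2 ENSRNOG00000013973, Cp ENSRNOG00000011913). The table holds no gene symbols, and the RefSeq annotation at hand lists all 6 symbols but 0 Ensembl identifiers among 47357 genes. The symbols therefore come with the list of identifiers, and their pairing was not checked against an annotation here. For the same reason the labelled tissue was not checked against marker genes of retinal cell types, and genes of related pathways were not looked up.

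Muller glia span the thickness of the retina, and astrocytes accompany its inner vessels. Under ischaemia, injury or inflammation both can enter a reactive state in which their intermediate filament genes rise, and Gfap in Muller glia is the classical sign of it. Cytokines of the IL-6 family, acting through STAT3, are known to raise several acute phase genes in glia, among them secreted inhibitors of proteases and proteins that bind iron or oxidise it.

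Retinas came from wild-type rats of the Sprague Dawley strain, 18 days after birth. The 4 groups of 3 retinal libraries were oxygen-induced retinopathy (OIR) with a miR-143 mimic, OIR with scrambled RNA, sham with the mimic, and sham with scrambled RNA. OIR is a model in which changes of oxygen in newborn animals disturb the growth of retinal vessels and later provoke abnormal new ones. The mimic is a made RNA that stands in for mature miR-143, with the scrambled RNA as its control. No source used here gives the oxygen schedule, the dose and route of the RNAs or the number of animals behind each library, so p-values measure the spread between libraries. Bulk retina was sequenced, so more cells of a type and more RNA per cell cannot be told apart.

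The mature arms of rat miR-143 are shown because the mimic is named after this microRNA. The labels do not say which arm it carries. Capitals mark the seed, bases 2 to 8 from the 5′ end, which pairs with target transcripts. Both come from RefSeq (GRCr8, minus strand), the 3p arm at chr18:57371373-57371394 and the 5p arm at chr18:57371408-57371428.
rno-miR-143-3p: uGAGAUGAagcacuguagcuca
rno-miR-143-5p: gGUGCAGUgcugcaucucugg

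Values are TPM, reads divided by gene length and scaled to the same total in each library. Reads on genes, worked back from the TPM, numbered 10537600 to 13175005 in the 12 libraries. All 6 genes passed the filter of 1 TPM in at least 3 libraries, which 15916 genes passed, and all 6 had more than 10 TPM in each of the 12 libraries. The fewest reads behind a value were 64, for Timp1 in sham scrambled replicate 1 (exact Poisson 95% interval 49.3 to 81.7, counting error only). Replicates differed by more than counting error, since chi-square divided by its degrees of freedom was 4.67 to 22.6 in the 12 pairs within groups. For OIR mimic replicate 1 and OIR scrambled replicate 3 the records carry no disease or transfection tag, and their groups come from their titles. These libraries had the highest summed level of the 6 genes, 1562 and 1675 TPM, against 838 to 1159 TPM in the other OIR libraries and 423 to 599 TPM in sham. Results that rest on them are given with and without them. The column names carry the letter L in each mimic library and R in each scrambled library. Their numbers form separate runs in OIR and sham, so whatever letters and numbers stand for and the groups cannot be told apart. Sham mimic replicate 1 and sham scrambled replicate 1 share a column number.

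The first question was what OIR did to these genes. Averaged over both RNAs, 5 of the 6 genes were higher in OIR than in sham (limma, Benjamini-Hochberg adjusted p below 0.05 over 15916 genes), against 17.5% of all tested genes called higher and 30.2% called in either direction in that comparison. At an unadjusted p below 0.05 it was 6 of 6, against 40.9% of tested genes. The exception was Lcn2. The median log2 fold change of the 6 genes was 1.38, where the median over all tested genes was 0.04. In 5 of 6 genes each OIR library lay above each sham library, a pattern held by 9.78% of tested genes. The 6 genes were chosen with earlier results of these data known, so their excess over all tested genes is not independent support.

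**Figure D1:**
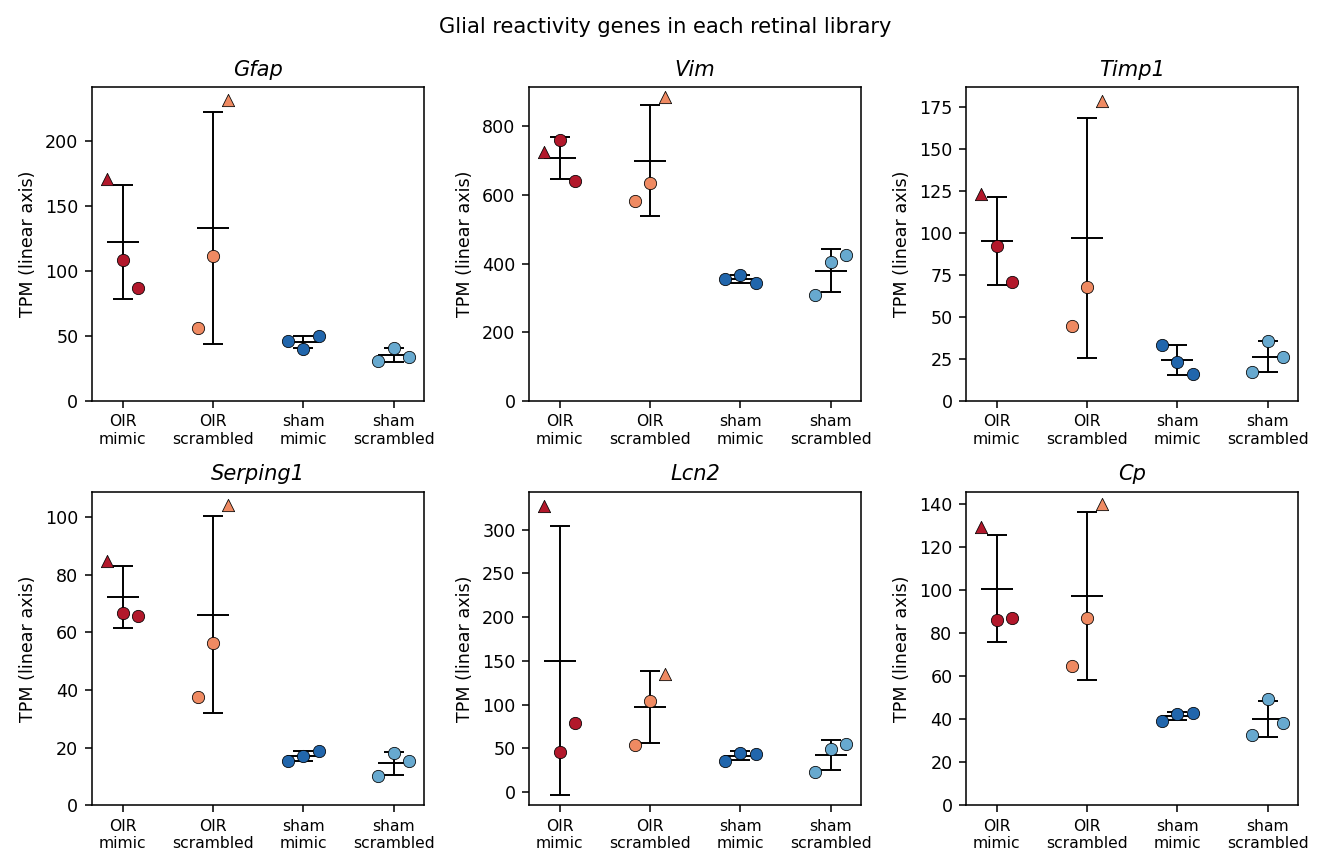
TPM of each gene in each library (points), with the group mean and SD (bars, n = 3), for OIR with mimic, OIR with scrambled RNA, sham with mimic and sham with scrambled RNA. Triangles mark the 2 libraries whose records lack condition tags; every OIR point lies above every sham point in each panel except that of Lcn2.

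The intermediate filament genes come first. Gfap encodes glial fibrillary acidic protein, the filament protein of astrocytes that Muller glia also make when reactive. It stood at 171, 109 and 86.6 TPM in OIR mimic replicates 1 to 3 and at 56.3, 111 and 232 TPM in OIR scrambled replicates 1 to 3. In sham mimic replicates 1 to 3 it stood at 46.3, 39.9 and 49.5 TPM, and in sham scrambled replicates 1 to 3 at 30.9, 40.9 and 33.5 TPM. The OIR and sham libraries did not overlap, although OIR scrambled replicate 1 came close to the highest sham library. Averaged over both RNAs, Gfap rose by a log2 fold change of 1.52 (SE 0.29, limma adjusted p = 0.00325), 2.86-fold on the TPM + 1 scale with a 95% interval of 1.82 to 4.51.

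Within each RNA the Gfap change rested on a wide spread. With the mimic it averaged 122 ± 43.9 TPM in OIR and 45.2 ± 4.90 TPM in sham (SD, n = 3 each), a log2 fold change of 1.36 (SE 0.42, limma adjusted p = 0.0441). With scrambled RNA the averages were 133 ± 89.6 TPM in OIR and 35.1 ± 5.18 TPM in sham (SD, n = 3 each), a log2 fold change of 1.67 (SE 0.42, limma adjusted p = 0.0304). The call with scrambled RNA was lost without OIR scrambled replicate 2 or 3 or any of the 3 sham scrambled libraries (limma adjusted p 0.0653 to 0.0948). With the mimic it was kept only without OIR mimic replicate 3, OIR scrambled replicate 1 or OIR scrambled replicate 3, and the 9 other omissions gave limma adjusted p of 0.0569 to 0.142. It was also lost with a pseudocount of 0.1 (0.0513), no filter on low values (0.0578), no trend and robust options (0.0514) or limma voom on recovered reads (0.0656). The scrambled call was lost when only the groups compared were fitted (0.103), and both were lost without the 2 sham libraries that share a column number (0.121 with scrambled RNA, 0.113 with the mimic). Both were lost with replicate number as a block (0.0559 with scrambled RNA, 0.0747 with the mimic). The averaged call was kept in each of these fits.

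Vim encodes vimentin, the filament protein that Muller glia carry at all times. It was the most abundant of the 6 genes in each library and ranked 213 of 15916 tested genes by mean TPM. Its levels were 727, 760 and 641 TPM in OIR mimic replicates 1 to 3 and 581, 635 and 885 TPM in OIR scrambled replicates 1 to 3. In sham mimic replicates 1 to 3 the levels were 355, 368 and 344 TPM, and in sham scrambled replicates 1 to 3 they were 308.6, 405 and 424 TPM. The lowest OIR library stood well above the highest sham library. Vim had the smallest fold change of the 6 genes and the narrowest interval. It rose by a log2 fold change of 0.93 averaged over both RNAs (SE 0.11, limma adjusted p = 0.000131), 1.91-fold with a 95% interval of 1.62 to 2.25. The log2 fold change was 0.99 with the mimic (SE 0.15, limma adjusted p = 0.0016) and 0.87 with scrambled RNA (SE 0.15, limma adjusted p = 0.00572). Both calls were kept in each fit that left out 1 library.

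Timp1 and Serping1 encode secreted protease inhibitors. Timp1, tissue inhibitor of metalloproteinases 1, blocks enzymes that cut the extracellular matrix. It stood at 123, 92.5 and 70.7 TPM in OIR mimic replicates 1 to 3 and at 44.5, 67.8 and 179 TPM in OIR scrambled replicates 1 to 3. In sham mimic replicates 1 to 3 it stood at 33.3, 23.3 and 15.8 TPM, and in sham scrambled replicates 1 to 3 at 17.0, 35.4 and 26.3 TPM. The groups did not overlap, and within each sham group the highest library had over 2 times the lowest. Averaged over both RNAs Timp1 rose by a log2 fold change of 1.81 (SE 0.33, limma adjusted p = 0.00249), 3.51-fold with a 95% interval of 2.10 to 5.86.

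With the mimic the log2 fold change of Timp1 was 1.96 (SE 0.47, limma adjusted p = 0.0159), a call lost without OIR mimic replicate 1 (0.0568) or sham mimic replicate 3 (0.0630). With scrambled RNA it was 1.66 (SE 0.47) and missed the threshold, at a limma adjusted p of 0.0502. It passed there without OIR scrambled replicate 1 (limma adjusted p = 0.0222), after median-ratio scaling (0.05 after rounding) and after quantile normalisation (0.0478). The log2 fold change was 1.10 without OIR scrambled replicate 3 (limma adjusted p = 0.129), 1.10 without both untagged libraries (0.123) and 1.10 with arrayWeights (0.0862). Without sham scrambled replicate 1 it was 1.39 (limma adjusted p = 0.155).

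Serping1 encodes the C1 inhibitor, which restrains the first step of the classical complement pathway and the contact system. It was the least abundant of the 6 genes by mean in each group and had the largest fold change. In OIR mimic replicates 1 to 3 it stood at 84.9, 66.7 and 65.7 TPM, and in OIR scrambled replicates 1 to 3 at 37.7, 56.5 and 104 TPM. In sham mimic replicates 1 to 3 it stood at 15.3, 17.0 and 18.8 TPM, and in sham scrambled replicates 1 to 3 at 10.2, 18.1 and 15.2 TPM. Each OIR library had over 2 times the TPM of each sham library. Averaged over both RNAs Serping1 rose by a log2 fold change of 2.02 (SE 0.22, limma adjusted p = 0.000114), 4.06-fold with a 95% interval of 2.91 to 5.67. It ranked 45 of 15916 tested genes by that fold change.

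The Serping1 change was nearly the same with either RNA. The log2 fold change was 2.02 with the mimic (SE 0.31, limma adjusted p = 0.0018) and 2.02 with scrambled RNA (SE 0.31, limma adjusted p = 0.00381). No fit that left out 1 library lost either call. Over those fits the log2 fold change lay between 1.902 and 2.088 with the mimic and between 1.64 and 2.36 with scrambled RNA.

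**Figure D2:**
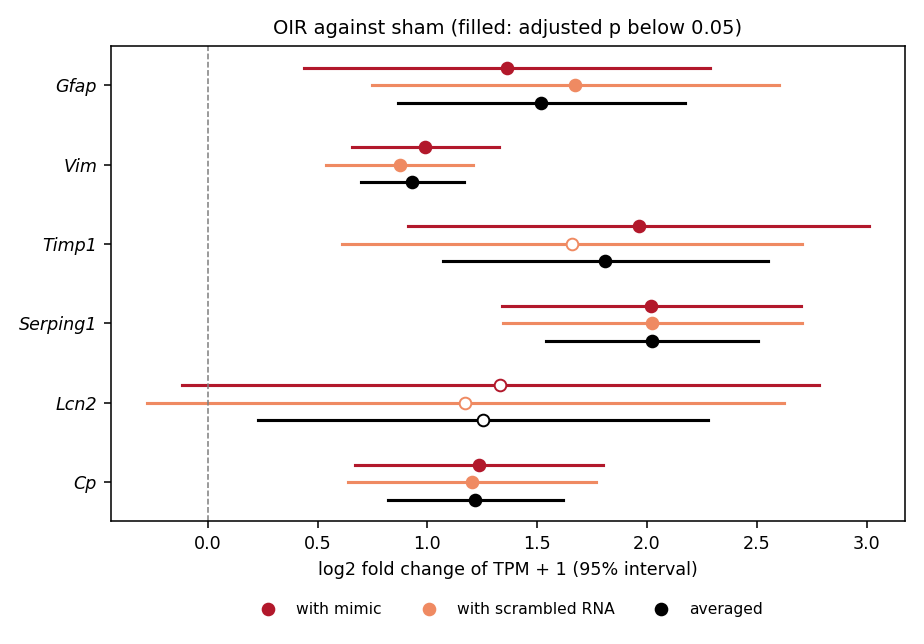
Log2 fold change of TPM + 1 in OIR against sham with its 95% interval for each gene, with the mimic, with scrambled RNA and averaged over both. Filled points have a limma adjusted p below 0.05; Serping1 lies farthest from 0, Vim has the narrowest intervals, and the 3 intervals of Lcn2 are the widest.

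Lcn2 and Cp are acute phase genes with roles in iron handling. Lcn2 encodes lipocalin 2, a secreted protein that binds iron-loaded bacterial siderophores and that reactive astrocytes and neutrophils make. It stood at 327, 45.4 and 78.6 TPM in OIR mimic replicates 1 to 3 and at 53.7, 105 and 135 TPM in OIR scrambled replicates 1 to 3. In sham mimic replicates 1 to 3 it stood at 35.6, 45.2 and 43.9 TPM, and in sham scrambled replicates 1 to 3 at 23.5, 49.4 and 54.5 TPM. OIR mimic replicate 2 and OIR scrambled replicate 1 lay within the sham range, and OIR mimic replicate 1 had over 2 times the level of any other library. Lcn2 was therefore the gene whose OIR and sham libraries overlapped.

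Averaged over both RNAs the log2 fold change of Lcn2 was 1.25 (SE 0.46), with a 95% interval of 0.23 to 2.28 and an unadjusted p of 0.0217, and it missed the threshold at a limma adjusted p of 0.0657. It passed without OIR mimic replicate 2 (limma adjusted p = 0.0208), without OIR scrambled replicate 1 (0.0399) and with arrayWeights (0.0387). The limma adjusted p rose to 0.211 without both libraries with the shared column number and to 0.134 without sham scrambled replicate 1. With limma voom on recovered reads it was 0.120. In these fits the unadjusted p was 0.101, 0.0527 and 0.0517. With the mimic the log2 fold change was 1.33 (SE 0.65, limma adjusted p = 0.19) and was 0.52 without OIR mimic replicate 1. With scrambled RNA it was 1.17 (SE 0.65, limma adjusted p = 0.294).

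Cp encodes ceruloplasmin, the copper-binding ferroxidase that helps iron leave cells. Its levels were 129, 85.8 and 86.7 TPM in OIR mimic replicates 1 to 3 and 64.4, 86.9 and 140 TPM in OIR scrambled replicates 1 to 3. In sham mimic replicates 1 to 3 the levels were 39.2, 42.2 and 43.0 TPM, and in sham scrambled replicates 1 to 3 they were 32.8, 49.4 and 38.0 TPM. All OIR libraries lay above all sham libraries. Cp rose by a log2 fold change of 1.22 averaged over both RNAs (SE 0.18, limma adjusted p = 0.000653), 2.33-fold with a 95% interval of 1.77 to 3.07. It rose by 1.23 with the mimic (SE 0.26, limma adjusted p = 0.00736) and by 1.204 with scrambled RNA (SE 0.26, limma adjusted p = 0.0152). The call with scrambled RNA was lost without sham scrambled replicate 1 (limma adjusted p = 0.0579), without the 2 libraries that share a column number (0.0796) and with only the groups compared (0.0586).

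By count, OIR against sham with the mimic called 5 of the 6 genes higher, against 9.76% of all tested genes called higher and 19.5% called in either direction. With scrambled RNA the count was 4 of 6, against 6.79% called higher and 10.7% in either direction. None of the 6 was called lower in either comparison. At an unadjusted p below 0.05 the count was 5 of 6 with each RNA, against 32.3% of tested genes with the mimic and 26% with scrambled RNA. With the mimic 6 of 6 genes had groups that did not overlap (20.1% of tested genes), Lcn2 by a lowest OIR value of 45.4 TPM against a highest sham value of 45.2 TPM, and with scrambled RNA 5 of 6 (19.7%). The comparisons with the mimic and with scrambled RNA share no libraries but use 1 estimate of the spread. Both are parts of the averaged comparison. The choice of the genes with earlier results known limits these counts as well.

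**Figure D3:**
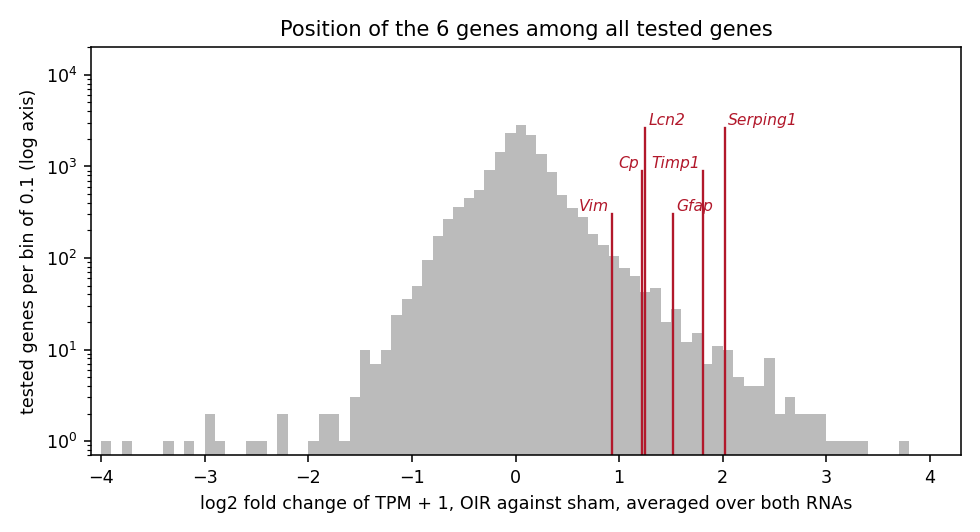
Number of tested genes per bin of 0.1 in log2 fold change of TPM + 1, OIR against sham averaged over both RNAs, on a logarithmic vertical axis, with the 6 genes as lines. The 6 lie between 0.93 for Vim and 2.02 for Serping1, above at least 97.3% of the 15916 tested genes; 1 gene beyond -4 is drawn in the first bin.

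The levels of the genes followed a shared order in the OIR scrambled libraries and only in part in the OIR mimic libraries. In the OIR scrambled group replicate 3 was the highest library for 6 of 6 genes and replicate 1 the lowest for 6 of 6, where replicate 3 was highest for 40.7% and replicate 1 lowest for 28.2% of tested genes. Within the OIR mimic group replicate 1 was highest for 5 of 6 genes, the exception being Vim, and for 48.8% of tested genes. The lowest place there was split. Replicate 3 held it for 4 genes and for 20.6% of tested genes, and replicate 2 for 2 genes and for 57.4%. Replicate 2 was the highest of that group for Vim and the lowest for Lcn2. In the sham scrambled group replicate 1 was the lowest library for 6 of 6 genes and for 27.8% of tested genes. The sham mimic libraries showed no such order, each being highest for 1 to 3 of the genes. In both OIR groups the library with the highest summed level was the one whose record lacks condition tags.

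Without both of those libraries the same 5 genes were called higher in the averaged comparison, against 13.1% of tested genes, and the fold changes were smaller. The log2 fold change was then 1.13 for Gfap, 0.83 for Vim, 1.43 for Timp1, 1.77 for Serping1 and 0.97 for Cp (limma adjusted p 0.000131 to 0.00413). For Lcn2 it was 0.71 (limma adjusted p = 0.111). With the mimic 5 of 6 genes were then called higher, against 8.31% of tested genes, and with scrambled RNA 4 of 6, against 3.81%. The part of other properties of these libraries in their high levels was not tested.

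**Figure D4:**
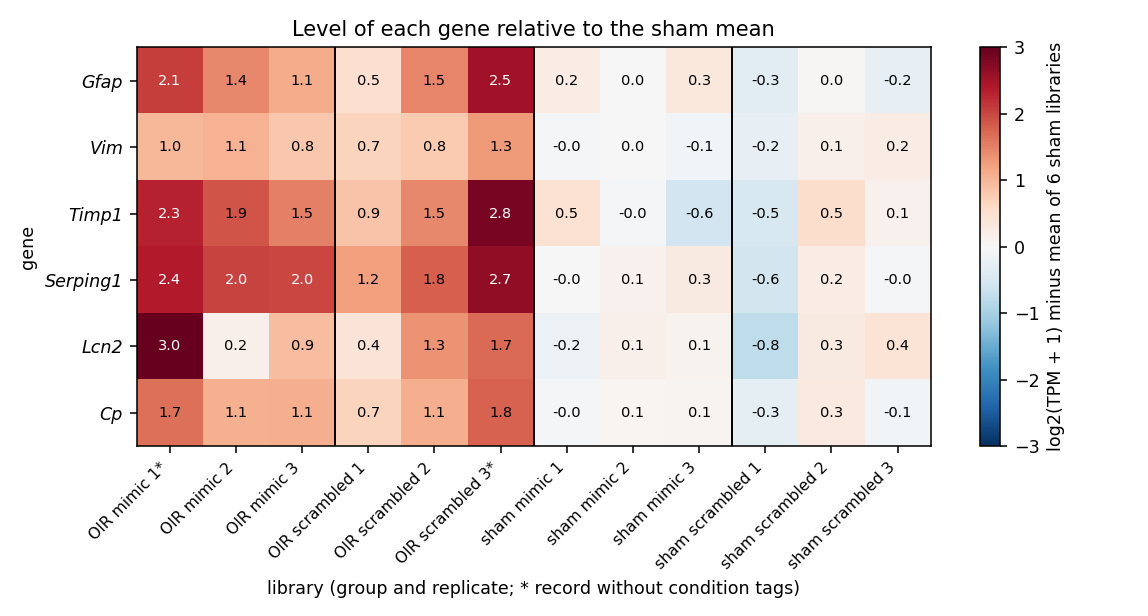
Log2(TPM + 1) of each gene in each library minus the mean of the 6 sham libraries, from OIR with mimic on the left to sham with scrambled RNA on the right, with an asterisk on the 2 libraries without condition tags. OIR scrambled 3 and OIR mimic 1 are the darkest columns, and Lcn2 in OIR mimic 2 is the palest OIR cell, at 0.16.

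Spread differed between the genes as well. In OIR scrambled libraries the SD of log2(TPM + 1) was 1.01 for Gfap, 1.02 for Timp1, 0.73 for Serping1, 0.68 for Lcn2, 0.56 for Cp and 0.32 for Vim, where the median over tested genes was 0.12. For sham scrambled libraries it ran from 0.20 for Gfap to 0.65 for Lcn2, against a median of 0.13. For sham mimic libraries the SD was 0.047 for Vim and 0.069 for Cp, below the median of 0.12 over tested genes, and 0.14 for Serping1, 0.16 for Gfap, 0.18 for Lcn2 and 0.51 for Timp1. The OIR mimic group had the largest SD of all for Lcn2, at 1.46, and the smallest of its group for Vim, at 0.13, where the median was 0.16. Whether the spread differed between OIR and sham was not tested.

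The order of the levels was set by Vim, whose lowest library in each group stood above the highest of any of the other 5 genes. The next 3 genes were Lcn2, Gfap and Cp in OIR mimic libraries and Gfap, Lcn2 and Cp in OIR scrambled and sham mimic libraries. Their order was Lcn2, Cp and Gfap in sham scrambled libraries. Neighbours among these 3 had overlapping ranges in each group. Within libraries, Gfap stood above Lcn2 in 3 of 3 OIR scrambled libraries and Cp above Gfap in 3 of 3 sham scrambled libraries, while the other neighbours changed order between libraries. Timp1 and Serping1 held the last 2 places in each group with overlapping ranges, although Timp1 was higher in 11 of the 12 libraries.

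The second question was what the mimic did. In OIR retinas none of the 6 genes differed between mimic and scrambled RNA by limma (0 of 6, smallest adjusted p 0.83, and 0 of 6 at an unadjusted p below 0.05), where 0 of 15916 tested genes were called and 9.37% had an unadjusted p below 0.05. All 6 log2 fold changes were positive, with a median of 0.14 against -0.05 over all tested genes. The signs did not hold without OIR scrambled replicate 1, where all 6 were negative, at -0.45 for Gfap, -0.08 for Vim, -0.24 for Timp1, -0.09 for Serping1, -0.17 for Lcn2 and -0.16 for Cp. By limma voom on recovered reads 0 of 15916 genes were called as well. Over all genes the count was 28, 27 of them lower, without both untagged libraries and 25 without OIR mimic replicate 1, with 0 of the 6 genes among them. In 0 of 6 genes did each mimic library lie above each scrambled library in OIR, against 3.64% of tested genes.

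The intervals show what these libraries could bound in OIR. For Vim the log2 fold change was 0.04 with a 95% interval of -0.30 to 0.37, and for Cp it was 0.10 with an interval of -0.47 to 0.66. For Serping1 it was 0.24, between -0.44 and 0.92, and for Gfap 0.05, between -0.88 and 0.97. For Timp1 the interval was wider (0.19, between -0.86 and 1.24), and for Lcn2 widest (0.21, between -1.24 and 1.66). On the TPM + 1 scale, changes of 2-fold up or down lay outside the interval of Vim and Cp in this fit and in each alternative run. For Gfap and Serping1 they did not stay outside. Without OIR scrambled replicate 3 the Gfap value was 0.56, between -0.14 and 1.26, and without OIR scrambled replicate 1 it was -0.45, between -1.17 and 0.27. Without OIR scrambled replicate 3 the Serping1 value was 0.63, between 0.12 and 1.14 (unadjusted p = 0.0201, limma adjusted p = 0.514).

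**Figure D5:**
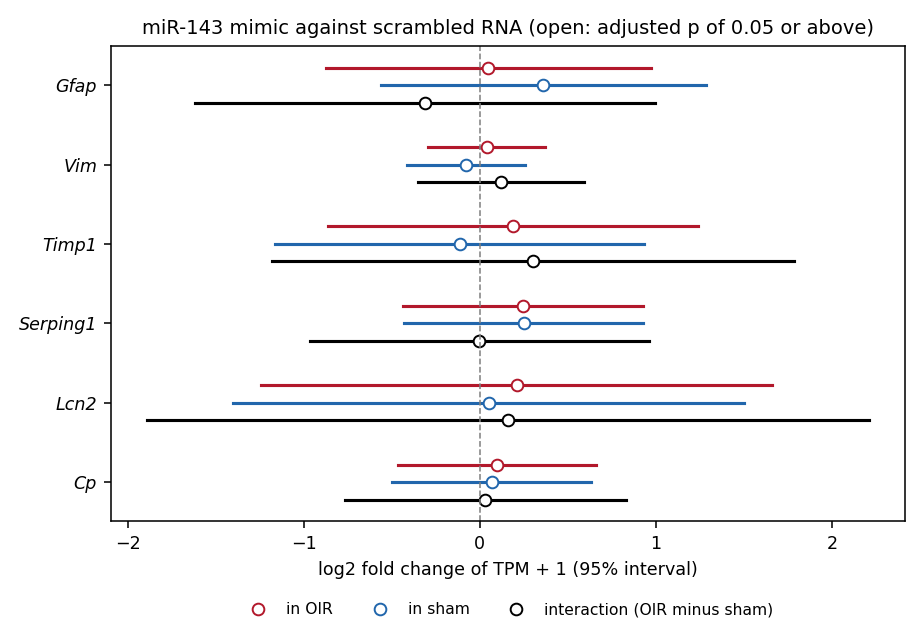
Log2 fold change of TPM + 1 between mimic and scrambled RNA within OIR and within sham, and the interaction (the change in OIR minus the change in sham), with 95% intervals. Every interval includes 0 and every point is open, which marks a limma adjusted p of 0.05 or above.

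In sham retinas the mimic likewise gave 0 calls among the 6 genes by limma (0 at an unadjusted p below 0.05, a level reached by 2.09% of tested genes, of which 0 were called by limma or by voom). Each mimic library lay above each scrambled library for 0 of 6 genes, against 2.83% of tested genes. The largest log2 fold change was that of Gfap, 0.36 with a 95% interval of -0.56 to 1.29 (limma adjusted p = 1). That interval uses the spread of all 4 groups. With only the groups compared fitted, the Gfap interval was 0.07 to 0.65 (limma unadjusted p = 0.0215, adjusted p = 0.975). Gfap averaged 45.2 ± 4.90 TPM in sham mimic and 35.1 ± 5.18 TPM in sham scrambled libraries (SD, n = 3 each), with overlapping ranges. The other 5 lay between -0.12 for Timp1 and 0.25 for Serping1. The Timp1 value was -0.64 without the 2 sham libraries that share a column number and -0.66 with arrayWeights (limma adjusted p 1 and 0.33).

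The third question was whether the OIR effect differed between the RNAs. The interaction was called for 0 of 6 genes by limma (smallest adjusted p 1 after rounding, and 0 of 6 at an unadjusted p below 0.05, against 3.7% of tested genes, with 0 genes called by limma or by voom). It was smallest for Serping1, at -0.0043 with a 95% interval of -0.97 to 0.96, and closest bounded for Vim, at 0.12 with an interval of -0.35 to 0.59. For Gfap it was -0.31, between -1.62 and 1.00, and for Lcn2 0.16, between -1.89 and 2.21. These intervals leave room for differences of 2-fold and more in Gfap, Timp1 and Lcn2. For Serping1 and Cp the interval stayed within 2-fold in this fit but not in each alternative. Without both libraries with the shared column number it reached 1.24 for Serping1 and 1.09 for Cp.

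The genes most like the 6 in pattern were sought over all 12 libraries. Likeness was the root-mean-square difference between a gene's centred log2(TPM + 1) profile and the mean centred profile of the 6, over 12048 other genes with a mean of at least 5 TPM. The closest was ENSRNOG00000016460 at 0.18, with 1454 to 2921 TPM in OIR and 739 to 991 TPM in sham libraries. The next was ENSRNOG00000018669, also at 0.18, with 13.1 to 29.3 TPM in OIR and 4.22 to 6.14 TPM in sham libraries. The median over the genes compared was 0.82. Of the 6 genes themselves Cp lay closest to their mean, at 0.16, and Lcn2 farthest, at 0.47. Each of the 6 is part of that mean, which lowers its distance, so these values cannot be set against those of the other genes. The sources used here do not pair these 2 identifiers with names.

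Promoters were searched because all 6 log2 fold changes of OIR against sham were positive. RefSeq windows of 300 bases on GRCr8, 250 before and 50 after a start, were at hand for 5 of the genes, all but Serping1. For Gfap and Vim that start is the outer edge of the annotated gene. For Lcn2, Cp and Timp1 it lies 71, 334 and 1456 bases inside the gene, so these windows lie partly or wholly within the annotated gene. On both strands, the STAT motif TTCNNNGAA, the AP-1 motif TGANTCA and the hypoxia response motif ACGTG had 0 matches in the 5 windows. They occurred in 8.87%, 7.33% and 19.3% of all 33469 promoters of that length. The NF-kappaB letters, GGG and CC with 5 bases between them, present in 47.3% of promoters, were found in the windows of Gfap, Vim, Timp1 and Lcn2, in part as overlapping matches. TATAAA, present in 14.2%, occurred in Vim and Cp. The C/EBP letters TTGCNNAA, present in 10.6%, had no match in the windows of Gfap, Vim and the protease inhibitor gene Timp1. They were found in the windows of Lcn2 and Cp, where they do not overlap another match. These 2 windows are printed because both genes are acute phase genes, and C/EBP factors are known regulators of that class. They were picked after the matches were seen, capitals mark the C/EBP letters, and a match is neither a bound site nor a cause. The Lcn2 window lies at chr3:36081731-36082030 on the minus strand, and the Cp window at chr2:104368420-104368719 on the plus strand.
Lcn2: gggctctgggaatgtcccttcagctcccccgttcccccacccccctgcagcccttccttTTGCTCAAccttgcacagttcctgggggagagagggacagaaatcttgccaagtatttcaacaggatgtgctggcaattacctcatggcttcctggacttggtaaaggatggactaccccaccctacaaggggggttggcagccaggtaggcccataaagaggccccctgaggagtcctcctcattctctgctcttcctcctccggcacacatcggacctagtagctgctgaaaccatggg
Cp: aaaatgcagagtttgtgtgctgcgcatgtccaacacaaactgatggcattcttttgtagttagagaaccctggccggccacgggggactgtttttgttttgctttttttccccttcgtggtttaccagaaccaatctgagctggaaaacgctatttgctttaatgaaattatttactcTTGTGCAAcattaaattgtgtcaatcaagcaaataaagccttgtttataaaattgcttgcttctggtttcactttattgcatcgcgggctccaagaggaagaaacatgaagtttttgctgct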

How the data were processed

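The authors deposited 1 table of TPM values (reads divided by gene length, with the same total in each library) for 12 retinal libraries. FastQC, TopHat, Cufflinks, Cuffdiff and the build rn6 appear in the submitters' processing notes with no role or version, and no source used here names the counting tool or the annotation release. Per the labels' protocols, libraries were sequenced as single-end reads; the protocol speaks of miRNA libraries, while the table lists genes. Columns were matched to samples by the pairs of title and column name that head the table, and 0 columns were left over.

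Genes with at least 1 TPM in at least 3 libraries were kept. Log2(TPM + 1) was fitted with limma 3.58.1 (R 4.3.3), 1 mean per group, 8 residual degrees of freedom, eBayes with trend and robust options, Benjamini-Hochberg adjustment over all tested genes and a threshold of 0.05. This scale understates the fold change of low genes. Whole reads and gene lengths were recovered from the TPM for 22310 of 22310 rows above 0 (tolerance 0.02). They served for depth, the reads and counting error behind single values, the chi-square between replicates and 1 alternative. The recovery and the fit were tested on simulated data. The genes given are the 6 members, and the 2 genes closest to their mean profile. Members and lists were chosen with earlier results of these data known. Alternatives were pseudocounts, filters, scalings, limma options, limma voom on recovered reads, subsets of libraries and a replicate block. Lists chosen by symbol were not used, since identifiers are not paired with symbols.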

Additional observations from a re-analysis of the deposited data

Results flagged for a closer look

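Among the 6 OIR libraries the Lcn2 level of OIR mimic replicate 1 stood far from the others, at 327 TPM against 135 TPM in the next library. Its gap to that library was 0.68 of the range of the 6, above Dixon's critical value of 0.625. On the log2(TPM + 1) scale of the fits, a check added after seeing the data, the gap was 0.45 of the range and below that value. On that scale the lowest sham library of Serping1, sham scrambled replicate 1, was set apart instead, with a gap of 0.65 of the range against 0.58 on the TPM scale. Lcn2 in OIR was 1 of 12 sets of libraries examined (6 genes in OIR and in sham), and chance sets about 1 in 20 apart. The Lcn2 value rests on 1594 reads. For the other genes OIR mimic replicate 1 was neither the highest nor the lowest OIR library. The check looks only at such end values, so it could not have set this library apart for them. OIR mimic replicate 1 was among the 2 highest OIR libraries for 5 of the 6 genes.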

How the results depend on the processing

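The averaged OIR comparison called 5 or 6 of the 6 genes under each of the 24 alternatives run, 12 of which left out 1 library. With scrambled RNA 2 to 5 genes were called on leaving out 1 library, 2 without both libraries with the shared column number and 2 with only the groups compared, against 4. With the mimic 3 to 5 were called on leaving out 1 library, against 5. The comparisons of mimic with scrambled RNA and the interaction gave 0 of 6 under each alternative run, and no log2 fold change of OIR against sham turned negative.

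Log2 fold changes of the mimic turned sign in some settings. In OIR this held for Vim with quantile normalisation (-0.019) and for Lcn2 without both untagged libraries (-0.32). In sham it held for Lcn2 and Cp with arrayWeights (-0.082 and -0.10) and without both libraries with the shared column number (-0.22 and -0.025). The interaction turned for Serping1 with median-ratio scaling (0.0087), arrayWeights (0.27), without both untagged libraries (0.26) and without those with the shared number (0.14), and for Lcn2 without both untagged libraries (-0.37). On leaving out 1 library the mimic values in OIR ran from -0.45 to 0.56 for Gfap, -0.084 to 0.22 for Vim, -0.24 to 0.75 for Timp1, -0.092 to 0.63 for Serping1, -0.60 to 0.81 for Lcn2 and -0.16 to 0.39 for Cp. In sham they ran from -0.22 to 0.0077 for Vim, -0.38 to 0.14 for Timp1, -0.32 to 0.27 for Lcn2 and -0.064 to 0.22 for Cp. The interaction ran from -0.81 to 0.20 for Gfap, -0.0053 to 0.30 for Vim, -0.13 to 0.87 for Timp1, -0.34 to 0.38 for Serping1, -0.65 to 0.76 for Lcn2 and -0.23 to 0.33 for Cp. The cause was not tested.

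Deviations of libraries with the same replicate number from their group means correlated above 0.1 in 5 of 18 pairs. Some of these pairs share no column number. The correlation was 0.19 for OIR scrambled replicate 1 with sham scrambled replicate 1, and 0.16 for OIR mimic replicate 1 with sham scrambled replicate 1. Pairs with unlike replicate numbers were not examined. The highest correlation, 0.26, was that of sham mimic replicate 1 with sham scrambled replicate 1, which share a column number. They stand on opposite sides of the comparison of mimic with scrambled RNA in sham. The main fit treated them as independent, and whether they share a source was not tested. With replicate number as a block, 5 genes were called in the averaged comparison, 4 with the mimic and 3 with scrambled RNA. The planned quasi-likelihood count test was not run, since the deposited values are TPM.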

Other observations

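Ratios of TPM within a library compared how far the genes rose, and only Serping1 to Cp had separate ranges in OIR and sham. These 4 ratios were chosen after the levels were seen, and no test was made. Serping1 stood at 0.585 to 0.777 of Cp in the 6 OIR libraries and at 0.311 to 0.437 of Cp in the 6 sham libraries, with no overlap. Gfap stood at 0.0969 to 0.262 of Vim in OIR and at 0.0790 to 0.144 of Vim in sham, where the ranges overlapped. The ratio of Timp1 to Gfap was 0.608 to 0.850 in OIR, within the 0.320 to 0.865 of sham. Lcn2 ran from 0.530 to 2.53 of Cp in OIR, against 0.715 to 1.44 in sham, and both ends of the OIR range lay in the mimic group.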
